A study of Caenorhabditis briggsae with 12 samples.

Results

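The step from day 3 to day 6 of adulthood was examined in whole hermaphrodites of the nematode Caenorhabditis briggsae. The 6 libraries of AF16, the wild-type laboratory strain, at these ages were chosen by their labels, 3 at day 3 and 3 at day 6, out of 12 in the series. The other 6 came from day 1 and day 9 adults of the same strain, 3 each, and served only to place the genes that differed. All animals carried the same genotype, were fed E. coli OP50 and came from bleached, age-matched populations, from which larvae were removed every second day by settling and picking. Each library pooled many whole animals, so that fewer cells of a type and less RNA per cell cannot be told apart. Nothing in the labels says that the replicates were separate cultures. The p-values therefore reflect the scatter of these libraries alone, part of which may be technical.

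A C. briggsae hermaphrodite makes a limited store of its own sperm before it switches to making oocytes, and an unmated animal stops producing embryos once that store is spent. Whole-animal RNA of young adults thus holds transcripts of the germ line and of embryos in the uterus beside those of the body. In the related species C. elegans, later adult life brings unfertilised oocytes, continued yolk production and shrinkage of the gonad. A shift after the reproductive period is named in the series title, and the step from day 3 to day 6 is one of the intervals in which it could be looked for. The deposited table gives genes by identifier without symbols, and 0 of its identifiers were found in a RefSeq table of 22727 genes. Genes are therefore described by how their levels behaved, identifiers are given for 4 of them, and no function, chromosome position or cell type marker could be assigned.

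The 6 libraries held 22703555 to 33079955 counts, and 13658 of 23169 genes had enough counts to be tested. A level of up to 0.0907 CPM (counts scaled to a common library total) in the deepest and 0.132 CPM in the shallowest of them is allowed by a count of 0, taking 3 counts as the limit and counting error only. Both limits use raw library totals. Within each day, replicates 1 and 2 were alike and replicate 3 stood apart. Across genes, log2 CPM of replicates 1 and 2 correlated at r = 0.995 at day 3 and 0.994 at day 6, while replicate 3 correlated with them at 0.981 and 0.982 at day 3 and at 0.981 and 0.980 at day 6. These coefficients run across genes, which are not independent, and only describe the libraries. The first principal component held 56.8% of the variance and parted the days, with the 3 day 3 libraries at -30.5, -32.7 and -40.7 and the day 6 libraries at 47.0, 48.9 and 8.05. Replicate 3 of day 6 thus lay between the day 3 libraries and the other two day 6 libraries. The second component, with 20.4%, set replicate 3 of both days below zero, at -30.8 and -28.3, against 3.75 to 25.5 for the other four. The third component, with 13.6%, set them on opposite sides, at 25.1 for replicate 3 of day 3 and -33.3 for that of day 6. The labels do not say how replicate 3 differed from the others. The numbers of genes called in each direction are also given below without it, while the descriptions of the called genes use the calls from all 6 libraries.

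**Figure D1:**
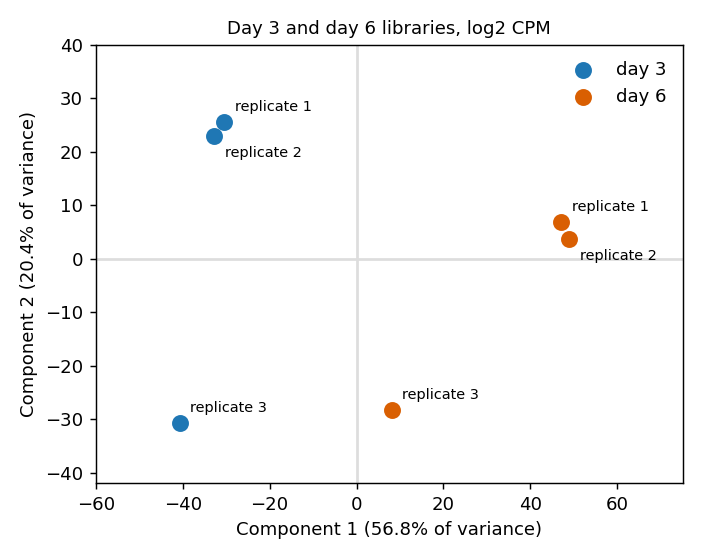
The 6 libraries on the first (x axis, 56.8% of variance) and second (y axis, 20.4%) principal components of log2 CPM over the 13658 tested genes, in component units. Each point is 1 library; the days part along the x axis, and replicate 3 of both days lies at the bottom.

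Gene expression differed between day 3 and day 6 in both directions, mostly by small factors, and over a part of the transcriptome whose size depended on the libraries in the fit. The levels of 1031 genes rose and those of 750 fell (edgeR's quasi-likelihood test on the 6 libraries, Benjamini-Hochberg adjusted p under 0.05). The higher genes were 7.55% and the lower genes 5.49% of all genes tested. The median log2 fold change was 0.75 among the higher genes, with an interquartile range of 0.45 to 1.23, and -0.79 among the lower genes, with one of -1.18 to -0.48. Over all tested genes it was 0.01. At least 2-fold changes were fitted for 356 of the higher and 258 of the lower genes, and at least 4-fold changes for 97 and 55. In all 1031 higher genes the 3 day 6 libraries lay above the 3 day 3 libraries, and in all 750 lower genes below them. Such non-overlap was found in 38.1% of all tested genes, 20.3% above and 17.8% below, so that most genes with it were not called. An unadjusted p under 0.05 was reached by 4397 genes. Among the 11877 genes not called, 692 had a fitted change of at least 2-fold, and 73 of these reached a mean of 10 CPM on their higher day.

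**Figure D2:**
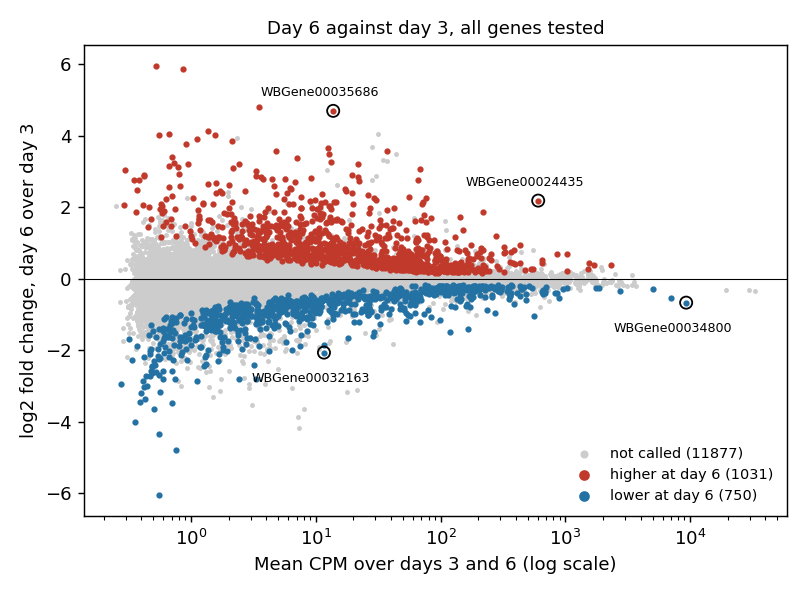
Log2 fold change of day 6 over day 3 (y axis) against the mean CPM over both days (x axis, log scale) for the 13658 tested genes. Each point is 1 gene, the 1031 higher and 750 lower genes are coloured, and the 4 named genes are circled; the called changes become smaller towards high levels.

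The number of calls depended on which libraries entered the fit. Without replicate 3 of day 6, 2255 genes were higher and 1900 lower, or 29.6% of the genes tested in that fit. Without replicate 3 of either day, a setting added after seeing the data that leaves 2 libraries a day, the numbers were 2913 and 2687, or 40.8%. These last calls included 1027 of the 1031 higher and 738 of the 750 lower genes. The libraries of this fit are part of the 6 that gave the first calls, so the overlap is no independent check. Leaving out replicate 3 of day 3 gave 853 and 730. The counts dropped when one of the libraries that resembled each other was left out. At day 3, the fit lacking replicate 1 called 443 higher and 194 lower genes, and the one lacking replicate 2 called 347 and 166. At day 6, the fit lacking replicate 1 called 450 and 149, and the one lacking replicate 2 called 422 and 158. In none of these fits was any of the 1781 genes called in the opposite direction. Since the days did not overlap in any of these genes, this is set by the choice of genes and is no test. The split between directions also moved. With all 6 libraries, 57.9% of the calls were higher with TMM factors and 55.3% under median-of-ratios scaling. Upper-quartile scaling made 39.0% of them higher (756 higher, 1181 lower). With the scaling kept, it ranged from 53.9% to 75.1% when 1 library was left out and was 39.3% with the day 1 libraries added to the fit.

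**Figure D3:**
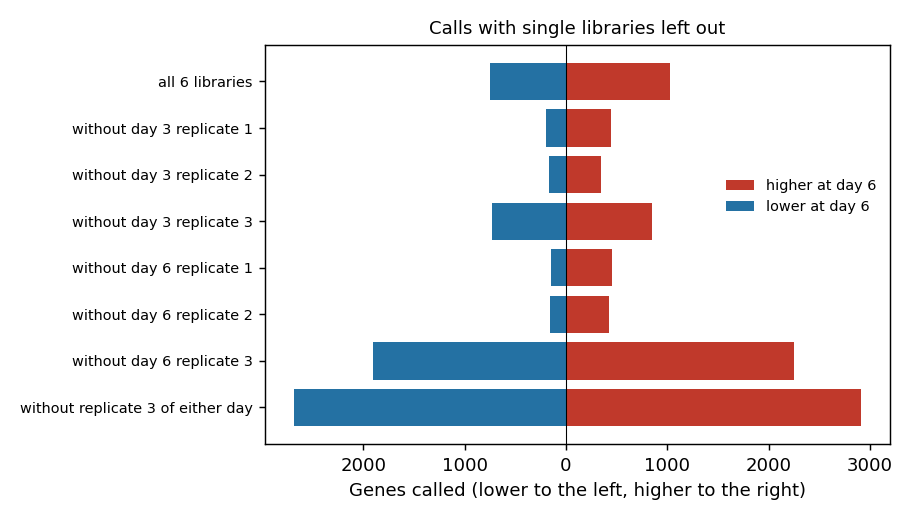
Number of genes called higher (right) and lower (left) at day 6 with all 6 libraries and with libraries left out, edgeR adjusted p under 0.05. Each pair of bars is 1 fit; without day 6 replicate 3 the counts reach 2255 and 1900, and without any 1 of replicates 1 and 2 they stay at or below 450 and 194.

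Replicate 3 of day 6 had the weaker change in most called genes. It was the lowest of the 3 day 6 libraries in 584 of the 1031 higher genes, or 56.6%, and the highest in 471 of the 750 lower genes, or 62.8%. Among genes not called it was likewise the lowest day 6 library in 53.7% of those fitted as higher and the highest in 50.8% of those fitted as lower. Set against the day 3 mean on a log2 scale, the higher genes stood at a median of 0.67, 0.71 and 0.65 in replicates 1, 2 and 3 of day 6. The lower genes stood at -0.71, -0.74 and -0.56. These genes were called on the same libraries, so the presence of the change in all 3 is fixed by the choice of genes, and the values only describe its size.

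The share of higher genes was largest in the middle of the abundance range. Of the genes with a mean of 10 to 100 CPM over the 2 days, 10.6% were higher (504 of 4745) and 4.45% lower (211). In the class from 1 to 10 CPM, 347 of 4580 genes were higher and 307 lower, or 7.58% and 6.70%. Under 1 CPM the lower genes were the more numerous, at 93 against 41 of 2027. Over 100 CPM the directions were even, with 139 genes each of 2306. The size of the called changes shrank as the level rose, from a median log2 fold change of 2.22 for higher and -1.88 for lower genes under 1 CPM to 0.36 and -0.30 over 100 CPM. The spread shrank likewise: the SD of log2 CPM between replicates, as a median over genes, went from 0.37 at day 3 and 0.40 at day 6 under 1 CPM to 0.05 and 0.08 over 100 CPM. Smaller changes could thus be called in abundant genes.

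The loss in counts was concentrated in fewer genes than the gain. The higher genes went from 4.56% ± 0.079 to 6.85% ± 0.18 of all counts (SD, n = 3 each). The share of the lower genes went from 8.17% ± 0.23 to 6.19% ± 0.23. These shares describe genes chosen on the same libraries and are no test. Summed over their mean CPM, the higher genes gained 21396 CPM and the lower genes fell by 21697 CPM, on a scale with a common total that itself draws gains and losses towards balance. On the losing side 14 genes made up 50% of the sum and the 10 largest losses 46.7% of it. On the gaining side 81 genes were needed for 50%, and the 10 largest gains made up 19.8%. Of the 10 genes most abundant over both days, 3 were called lower and 0 higher (edgeR), with log2 fold changes from -0.66 to 0.11 over the 10. As a group their share of the counts was 12.8% ± 1.14 on day 3 and 10.5% ± 1.39 on day 6 (SD, n = 3 each). The libraries overlapped between the days, at 11.9% to 14.1% and 9.46% to 12.1%.

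In each direction 2 genes are given by identifier: the one with the largest fold change among called genes that reached a mean of 10 CPM on their higher day, and the one with the largest difference in mean CPM. The largest rise in fold was that of WBGene00035686. It stood at 1.03, 0.718 and 1.29 CPM in the 3 day 3 libraries and at 21.5, 24.1 and 34.1 CPM in those of day 6. All day 6 libraries were far above all day 3 libraries, and replicate 3 of day 6, which showed the weaker change in most genes, was the highest here. The means were 1.01 ± 0.29 and 26.5 ± 6.63 CPM (SD, n = 3 each). On the log2 scale the gene rose by 4.70 (SE 0.27, edgeR adjusted p = 0.000176). At days 1 and 9, on the same scale, the gene stood at 3.20 to 4.39 CPM and at 1.44 to 2.77 CPM. Its day 6 level was thus above that of each of the other 9 libraries.

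The largest rise in CPM was that of WBGene00024435. It stood at 242.0, 252.8 and 159.0 CPM at day 3 and at 885.5, 908.7 and 1183 CPM at day 6. The days did not overlap, and replicate 3 was the lowest library of day 3 and the highest of day 6. The mean went from 218.0 ± 51.3 to 992.4 ± 165.4 CPM (SD, n = 3 each), and the fitted log2 rise was 2.19 (SE 0.21, edgeR adjusted p = 0.00286). This difference of 774.4 CPM was 3.62% of the summed gain of all higher genes. At day 1 the gene stood at 87.7, 115.03 and 99.8 CPM, below each day 3 library. Its 3 day 9 libraries, in the order of the replicates, gave 1332, 458.7 and 534.6 CPM, so that the day 9 libraries lay on either side of those of day 6.

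Among the lower genes that reached a mean of 10 CPM at day 3, WBGene00032163 had the largest fall in fold. Larger falls were fitted for lower genes below that level. Its level was 19.2, 17.3 and 19.7 CPM at day 3 and 5.88, 4.51 and 3.11 CPM at day 6. The day 3 libraries were close to each other and all above those of day 6. The mean fell from 18.7 ± 1.29 to 4.50 ± 1.38 CPM (SD, n = 3 each), or -2.06 on the log2 scale (SE 0.22, edgeR adjusted p = 0.00162). Day 1 levels of this gene were higher still, at 63.7 to 75.7 CPM. Its 3 day 9 libraries gave 0.722, 8.31 and 9.48 CPM, the first of them the lowest of all 12. The call was lost with all 12 libraries in the fit (log2 fold change -2.19, edgeR adjusted p of 0.117) and kept with those of days 1, 3 and 6 (-2.13, edgeR adjusted p of 0.000152).

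The largest loss in CPM came from WBGene00034800, which ranked 4 by mean CPM over the 6 libraries. It stood at 12428, 10609 and 11109 CPM at day 3 and at 7164, 6667 and 7707 CPM at day 6. The lowest day 3 library was above the highest day 6 library. The mean fell from 11382 ± 939.7 to 7179 ± 520.1 CPM (SD, n = 3 each), and the log2 difference was -0.66 (SE 0.09, edgeR adjusted p = 0.00579). Alone it made up 19.4% of the summed loss of all lower genes. Day 1 stood at 7640 to 8272 CPM, below each day 3 library. Day 9 stood at 2280 to 2403 CPM in all 3 libraries, below each library of the other days. For this gene the 3 day 9 libraries did not part as they did for WBGene00032163 and WBGene00024435.

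**Figure D4:**
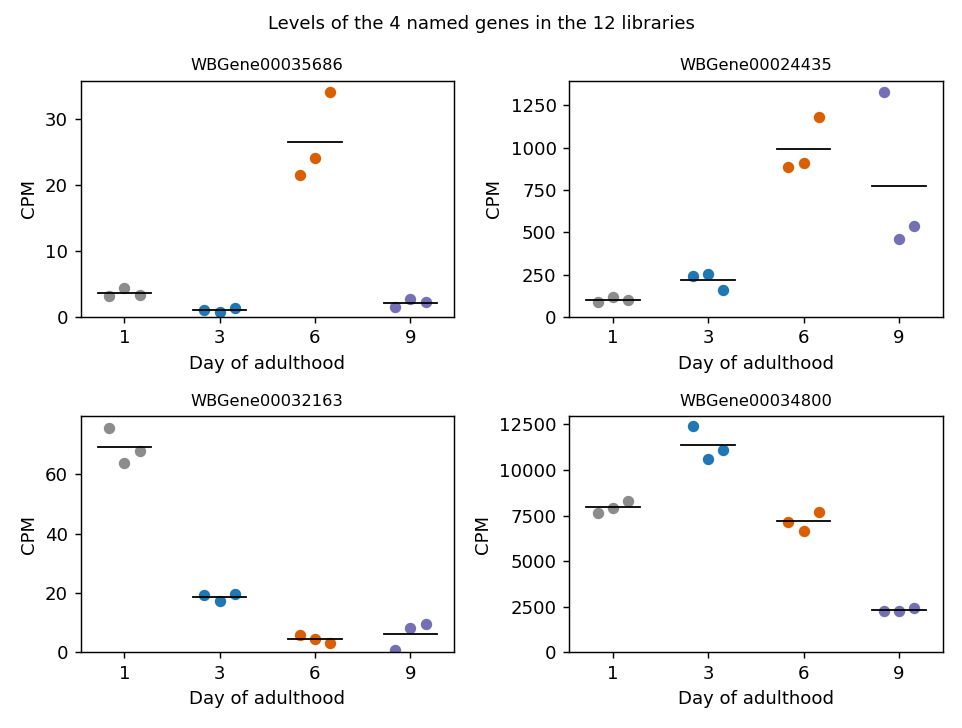
CPM (y axis, from 0) of the 4 named genes in the 12 libraries by day of adulthood (x axis). Points are libraries in the order of replicates 1, 2 and 3, and lines are means of 3; WBGene00035686 is high at day 6 alone, and WBGene00034800 is highest at day 3 and lowest at day 9.

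Genes with at least 4-fold changes were mostly of low level. Of the 97 genes that rose at least 4-fold, 40 reached a mean of 10 CPM at day 6, and of the 55 that fell at least 4-fold, 1 did so at day 3, which was WBGene00032163. The strongly higher genes had median levels of 0.878, 0.718 and 1.10 CPM in the day 3 libraries and 7.59, 7.56 and 5.71 CPM in those of day 6. They were near their day 3 level at day 1, at 1.01 to 1.26 CPM, and between both levels at day 9, at 3.87, 2.91 and 2.26 CPM. The strongly lower genes had medians of 0.840, 0.832 and 1.39 CPM at day 3 and 0.159, 0.172 and 0.183 CPM at day 6. In replicate 1 of day 9 their median was 0.0657 CPM, under the limit of 0.210 CPM that 3 counts give on its raw total, without TMM scaling. Their medians in replicates 2 and 3 of day 9 were 1.26 and 1.76 CPM. At day 6 their level rested on few counts, and their fitted fold changes depend on the prior count of the model.

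The called genes were then placed against day 1 and day 9, whose libraries had no part in the calls. Before any comparison, replicate 1 of day 9 stood apart from replicates 2 and 3. It held 14276540 counts against 31861634 and 25821051 in them, and whether this depth plays a part was not tested. The median over all tested genes was 11.2 CPM in replicate 1 and at least 17.6 CPM in replicates 2 and 3. That median was 16.17 to 16.48 CPM at day 1, 10.5 to 11.2 CPM at day 3 and 11.4 to 11.8 CPM at day 6, and the groups below are to be read against it. The higher genes had similar medians in all 3 day 9 libraries, between 20.2 and 21.1 CPM. Day 6 medians of these genes were 22.8, 23.2 and 21.4 CPM, those of day 3 were 12.1, 11.3 and 11.9 CPM, and those of day 1 were 15.3 to 15.4 CPM. Their level above day 3 at day 6 is fixed by the choice of genes. In replicates 2 and 3 of day 9 the median of all genes was likewise well above that of day 3. In replicate 1, at 11.23 CPM, it was barely above the highest day 3 library, at 11.20 CPM. Set against the day 1 mean of each gene on a log2 scale, the higher genes stood at a median of 0.43, 0.20 and 0.21 in replicates 1, 2 and 3 of day 9, and all tested genes at -0.08, 0.01 and -0.03. The share of counts in the higher genes was 7.57% in replicate 1 and 5.42% and 5.37% in replicates 2 and 3, against 4.31% to 4.41% at day 1.

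The medians of the lower genes followed the split between the day 9 libraries. They stood at 5.91 CPM in replicate 1 of day 9, within the day 6 range of 5.71 to 6.79 CPM, and at 22.3 and 24.5 CPM in replicates 2 and 3. At day 1 they stood at 20.3 to 21.3 CPM and at day 3 at 10.8 to 11.3 CPM. The drop from day 3 to day 6 is fixed by the choice of genes, and the median of all genes was likewise lower at day 3 than at day 1 and higher in replicates 2 and 3 of day 9. Set against the day 1 mean of each gene, the lower genes stood at a median log2 ratio of -1.39, 0.08 and 0.09 in the 3 day 9 libraries, and at -0.51, -0.58 and -0.69 at day 3, where all tested genes stood at -0.09 to -0.12. The comparisons with day 1 share the day 3 or day 6 libraries with the calls, so no overlap of calls is given for them. Scaling by median-of-ratios factors over all 12 libraries left the split of the lower genes in place. Day 9 medians were then 20.6, 19.7 and 19.4 CPM for the higher and 6.02, 20.9 and 22.5 CPM for the lower genes. The median of all tested genes also split under this scaling, at 11.4, 16.5 and 16.5 CPM.

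**Figure D5:**
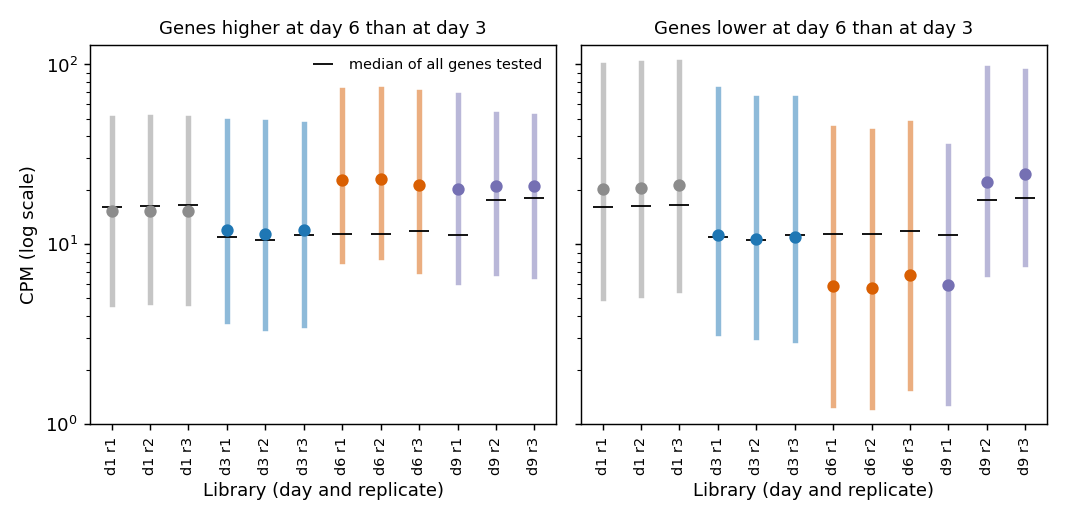
Level in CPM (y axis, log scale) of the 1031 higher (left) and 750 lower genes (right) in each of the 12 libraries (x axis). Points are medians over genes, bars the interquartile ranges and dashes the median of all tested genes; the higher genes have medians of 20.2 to 23.2 CPM at days 6 and 9, while the median of all genes differs between the day 9 libraries, and the lower genes stand at 5.91 CPM in replicate 1 of day 9 and above 22 CPM in the other two.

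Day 9 against day 1 shares no library with day 6 against day 3, and its calls can be set beside those above. In an edgeR fit of only days 1 and 9, day 9 was called above day 1 in 83 of the 1019 higher genes tested there, or 8.15%, against 1.66% of all 13503 genes tested in both. They were 37.1% of the 224 genes called higher at day 9 among these. A further 4 of the higher genes, or 0.393%, were called lower at day 9, against 0.955% of all genes. Of the 744 lower genes tested there, 34 were called lower at day 9, or 4.57%, which was 26.4% of all genes called lower among these. Only 1 of them was called higher, or 0.134%.

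These few calls rested on which day 9 libraries were in the fit. Without replicate 1 of day 9, 30.1% of all genes were called higher and 22.9% lower, and of the higher genes 507 were called higher (49.8%) and 176 lower (17.3%). Of the lower genes 303 were then called higher (40.6%) and 190 lower (25.4%). Without replicate 2 there were 0 calls among all genes, and without replicate 3 there were 3 higher and 8 lower. Without a model, the 3 day 9 libraries lay above the 3 day 1 libraries in 402 of the 1031 higher genes, or 39.0%, against 13.4% of all tested genes. They lay below them in 117, or 11.3%, against 18.3%. For the 750 lower genes the corresponding numbers were 21 above (2.80%) and 230 below (30.7%). Without replicate 1, the day 9 libraries lay above those of day 1 in 547 of the higher genes (53.1%) and 332 of the lower genes (44.3%), against 34.5% of all genes. They then lay below in 269 (26.1%) and 250 (33.3%), against 35.2%. Without replicate 2 they lay above in 424 (41.1%) and 21 (2.80%), against 14.7%, and below in 126 (12.2%) and 247 (32.9%), against 19.7%. Without replicate 3 they lay above in 445 (43.2%) and 33 (4.40%), against 19.1%, and below in 143 (13.9%) and 275 (36.7%), against 22.5%.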

How the data were processed

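Per the labels' protocols, RNA was extracted with Trizol from whole hermaphrodites and made into libraries with a TruSeq RNA v2 kit. The authors deposited raw counts per gene, with a column for each library. The tools named in the submitters' processing notes are STAR, featureCounts and MultiQC. Their versions, the build, the annotation and whether strand was used are not given in the sources used, so genes that overlap or have near-identical copies are uncertain.

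Days were assigned from the titles. Within a day every pair of libraries differed by more than sampling noise (chi-square over its degrees of freedom, 4.40 to 34.7). Each library was counted once, though such scatter does not show that the libraries came from separate cultures. Genes were kept by filterByExpr, TMM factors applied and a mean per day fitted to the 6 libraries in edgeR 4.0.16 (R 4.3.3) with robust quasi-likelihood dispersions and 4 residual degrees of freedom. Benjamini-Hochberg adjustment ran over 13658 genes, with a threshold of 0.05. Each SE is the size of the log2 fold change over the root of its F value. The TMM factors also scaled CPM. Day 1 and day 9 libraries were put on that scale by TMM factors over the same genes and reference library. Log2 CPM used a prior count of 2, and log2 ratios to a day's mean a pseudocount of 0.5.

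On simulated counts the test recovered 64% of 100 genes changed 2-fold and 91% of 100 changed 4-fold between days 3 and 6 (13437 genes). False calls were 7.19% of the calls. The changed genes had a mean of at least 10 counts, and no other gene was changed. Libraries were drawn independently, so replicate 3 had no shift of its own there. These rates need not hold for the real libraries or for genes with fewer counts. Genes were named if called without overlap, by the largest fold change (at least 10 CPM on the higher day) and by the largest difference in CPM. Alternatives were other scalings, filters, tools (DESeq2 1.42.0, limma-voom of limma 3.58.1), libraries, thresholds and a replicate block. Gene lists fixed by symbol were not run, since the files do not pair identifiers with symbols. The comparison, the lists and the rules were chosen with earlier results of these data known.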

Additional observations from a re-analysis of the deposited data

How the results depend on the processing

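Against 1031 higher and 750 lower genes at day 6, the lower genes numbered 1181 with upper-quartile scaling, 1172 with DESeq2 and 1806 with days 1, 3 and 6 in the fit, where higher genes changed by less than 1.5-fold in number. With all 12 libraries in the fit there were 225 and 85. Stricter rules gave 344 and 121 (adjusted p under 0.01), 356 and 258 (changes of at least 2-fold) and 172 and 46 (glmTreat against 1.5-fold), fewer by construction. Leaving out 1 library gave 347 to 2255 higher and 149 to 1900 lower genes, and leaving out replicate 3 of both days 2913 and 2687. The cause of the other shifts was not tested. Median-of-ratios factors, both other filters and limma-voom kept both counts within 1.5-fold. The replicate number as a block gave 910 higher and 780 lower genes; 816 and 539 of these had been called without it. Same-numbered libraries deviated together at r = 0.21, 0.07 and 0.20 across genes for replicates 1, 2 and 3, which does not establish a pairing, and replicate 2 of day 3 correlated slightly better with replicate 1 of day 6 than with its own number. The log2 fold changes of the 4 named genes kept their direction in each of the 16 alternatives run for each gene. These genes were chosen for large changes without overlap on the same libraries, so the kept direction is no test. The call of WBGene00032163 was lost in 1 of its alternatives. Not all simulated 2-fold changes were recovered, and genes without a call may differ between the days, above all under 1 CPM, where counts were few.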
